A study of Homo sapiens with 54 samples.

Results

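The 73 genes described here encode proteins of the cytosolic ribosome. They were taken from a table of 58870 human genes by symbol, as every row named RPS or RPL followed by a number and, in some, the letter A or X. The rule gave 30 genes of the small (40S) subunit and 43 of the large (60S) subunit. It left out 6 ribosomal protein genes with other names, among them RPLP0, RPLP1, RPLP2, RPSA and FAU, which were followed as a separate list. All 73 members were annotated as protein coding under the same symbol in GENCODE v44, and all 73 passed the filter on low counts in every comparison, the lowest member value in any library being 2054 expected counts.

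The libraries came from A549 cells, an established human lung adenocarcinoma line, that carried either an insertless (empty) vector, called insertless-vector cells here, or a vector for the expression of USP18, the protease that removes the ubiquitin-like protein ISG15 from other proteins. Cells of each kind received vehicle (DMSO) or 1 of the compounds that the labels give as CP2 (2 and 5 µM), CP14 (1, 2.5 and 5 µM) and CP18 (1, 2.5 and 5 µM) for 48 h. The sources used here do not tie a code to a chemical name. There were 18 groups of 3 replicates, 54 libraries in all, with totals from 16673228 to 25609062 expected counts. Each vector stands for 1 engineered cell population, so a difference between insertless-vector and USP18 cells is a difference between those populations. Nothing in the labels says that replicates were separate cultures, so the p-values measure only the spread between these samples.

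USP18 itself was at 8.77 to 12.3 CPM (counts scaled to the size of the library) in the libraries with the empty vector and at 947 to 2115 CPM in those with the USP18 vector, which matched the labels. The epithelial keratins KRT8 and KRT18 were expressed in each group, whereas alveolar type II markers were nearly absent, with 0.188 to 0.337 CPM summed over 4 genes in insertless-vector cells with vehicle and SFTPA1 and SFTPB at 0.

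A cytosolic ribosome holds a single copy of nearly every ribosomal protein, and proliferating cells spend a large part of their transcription and translation on making them. Mammalian ribosomal protein mRNAs are known as TOP mRNAs: they begin with a C followed by an uninterrupted run of pyrimidines, the 5′ terminal oligopyrimidine tract, through which the growth kinase mTOR, acting by way of LARP1 and the 4E-BP proteins, controls their translation and their stability. Surplus ribosomal proteins are degraded, and RPL5 and RPL11 not used in ribosomes can bind MDM2, the ubiquitin ligase of p53.

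Because many members carry the tract, the bases around the annotated start of transcription are given first. The windows are those of the 5 largest rises with 5 µM CP14, of RPS6, and of some members that rose least or fell. RPL9 rose more than RPS6 in insertless-vector cells (0.58 against 0.54 on the log2 scale). It had no tract at its listed start and is not shown. Each line holds 15 bases before and 15 bases from the start, read 5′ to 3′ on the coding strand of RefSeq on GRCh38.p14, with the pyrimidine tract in capitals where the start is a C and the tract has at least 5 bases.
RPL12: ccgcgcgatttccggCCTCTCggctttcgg
RPS12: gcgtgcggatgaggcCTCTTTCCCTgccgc
RPS18: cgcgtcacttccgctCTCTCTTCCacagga
RPL26: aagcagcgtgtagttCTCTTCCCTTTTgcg
RPL36: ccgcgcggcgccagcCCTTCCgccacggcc
RPS6: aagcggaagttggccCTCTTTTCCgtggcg
RPL22: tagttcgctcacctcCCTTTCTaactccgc
RPL7A: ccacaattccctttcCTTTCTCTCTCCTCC
RPS15: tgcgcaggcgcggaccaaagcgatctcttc
RPS26: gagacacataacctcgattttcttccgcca

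The windows lie at chr9:127451392-127451421 (minus strand) for RPL12, chr6:132814554-132814583 (plus) for RPS12, chr6:33272060-33272089 (plus) for RPS18, chr17:8383179-8383208 (minus) for RPL26 and chr19:5690280-5690309 (plus) for RPL36. Those of the others are chr9:19380222-19380251 (minus) for RPS6, chr1:6199581-6199610 (minus) for RPL22, chr9:133348203-133348232 (plus) for RPL7A, chr19:1438381-1438410 (plus) for RPS15 and chr12:56041903-56041932 (plus) for RPS26. RPS15 and RPS26 had no tract at the listed start. GENCODE v44 places the first base of RPS26 at 56041351, upstream of the RefSeq start, so the absence of the tract is a statement about this annotated start.

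The promoter table held 58 of the 73 members. A start on C with a tract of at least 5 pyrimidines was found at 1 or more annotated starts of 42 members (72.4%), as compared with 5.14% of the 27305 gene symbols in that table. A second motif, CGGAAG on either strand within the 300 bases from 250 before to 50 after a start, the core recognised by ETS-family factors, was found in 37 members (63.8%) and in 22.6% of all symbols. The motif read on the other strand, CTTCCG, overlaps the tract of RPL36 shown above. These matches are descriptions of the sequence and do not show binding or use of a start.

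Ribosomal protein genes held a stable part of the libraries with vehicle. The 73 members together took 5.34%, 5.35% and 5.31% of the counts in insertless-vector cells and 5.61%, 5.70% and 5.69% in USP18 cells, so the groups did not overlap. With 5 µM CP14 the share was 7.19%, 7.48% and 7.15% in insertless-vector cells and 8.06%, 7.83% and 7.98% in USP18 cells. Those means, 7.27% ± 0.18 and 7.96% ± 0.11 (SD, n = 3), were 1.36 and 1.40 times the vehicle means of 5.33% ± 0.022 and 5.67% ± 0.052. Counts are relative to the library, so more of these mRNAs per cell and less of other RNA per cell cannot be told apart. The share of mitochondrially encoded RNA ran from 2.15% to 4.00% over all libraries, and without it the folds were 1.36 and 1.40.

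**Figure D1:**
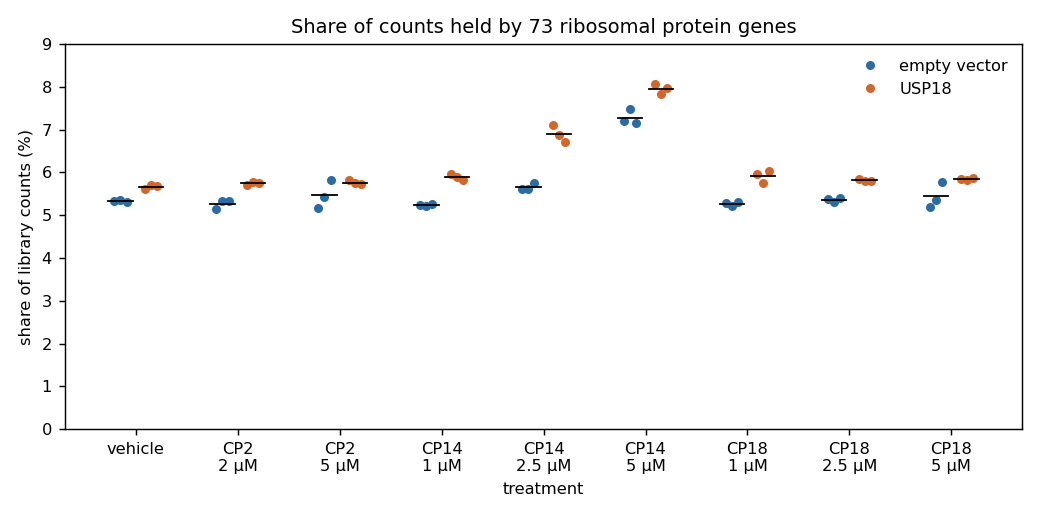
Share of all counts (%) held by the 73 genes in each of 54 libraries (points, with the mean of 3 as a line), by treatment and cell population. Libraries with 5 µM CP14 lie between 7.15% and 8.06%, above all others, and those with 2.5 µM CP14 in USP18 cells between 6.72% and 7.11%.

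USP18 cells had the higher share with vehicle and at each dose of CP14. Among these doses, the populations differed most in the fold over vehicle at 2.5 µM CP14. USP18 cells stood at 7.11%, 6.86% and 6.72%, which was 1.22 times their vehicle mean, whereas insertless-vector cells stood at 5.61%, 5.62% and 5.75%, or 1.06 times theirs. At 1 µM the means were 5.23% ± 0.023 in insertless-vector cells and 5.90% ± 0.077 in USP18 cells. No group with CP2 or CP18 had a mean over 5.92%. The widest spread was found in insertless-vector cells with 5 µM CP2 (5.18%, 5.42% and 5.83%) and with 5 µM CP18 (5.20%, 5.36% and 5.77%), and in both groups replicate 3 was the highest.

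Both subunits took part. The small-subunit genes held 2.21% ± 0.009 of counts with vehicle and 3.03% ± 0.075 with 5 µM CP14 in insertless-vector cells, and the large-subunit genes 3.13% ± 0.014 and 4.24% ± 0.11. In USP18 cells the small-subunit share went from 2.25% ± 0.027 to 3.18% ± 0.046 and the large-subunit share from 3.41% ± 0.028 to 4.77% ± 0.071.

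Within the set, levels per length were compared in insertless-vector cells with vehicle, as CPM per kilobase of the median protein-coding transcript. RPS2, a protein at the mRNA entry channel, was highest with 2845 ± 63.6 CPM per kb (SD, n = 3). RPS19, a small-subunit protein known for mutations in Diamond-Blackfan anaemia, and RPL4, a protein of the peptide exit tunnel, followed with 2205 ± 40.4 and 2202 ± 23.3 CPM per kb and did not differ beyond their spread. The lowest were RPS26 (179 ± 7.98), RPS28 (155 ± 5.34) and RPL14 (50.4 ± 0.45). The order depends on the transcript taken: the median length of RPL14 was 7072 nucleotides, as compared with a median over members of 681.5, and with the longest transcript in place of the median RPS19 was at 560 CPM per kb.

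For each treatment, changes were estimated gene by gene with edgeR's quasi-likelihood test and Benjamini-Hochberg adjustment over all genes tested, and a gene is called higher or lower where the adjusted p was under 0.05, whatever its size. Values per library are CPM scaled by TMM. The comparisons with vehicle within a cell population share the 3 vehicle libraries.

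With 5 µM CP14, 71 of 73 members rose in insertless-vector cells and 71 of 73 rose in USP18 cells, where 31.0% and 34.4% of all tested genes were higher and 32.1% and 34.3% were lower. The median member change was 0.38 and 0.42 on the log2 scale, beside medians over all tested genes of 0.005 and 0.011. In both populations RPS26 was the single member that fell and RPS15 the single member not called. The small- and large-subunit medians were 0.39 and 0.37 in insertless-vector cells and 0.42 and 0.41 in USP18 cells. In 72 of 73 members, RPS15 among them, all 3 treated libraries were above all 3 vehicle libraries in each population, a pattern found in 32.2% of genes in insertless-vector cells and 34.5% in USP18 cells.

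**Figure D2:**
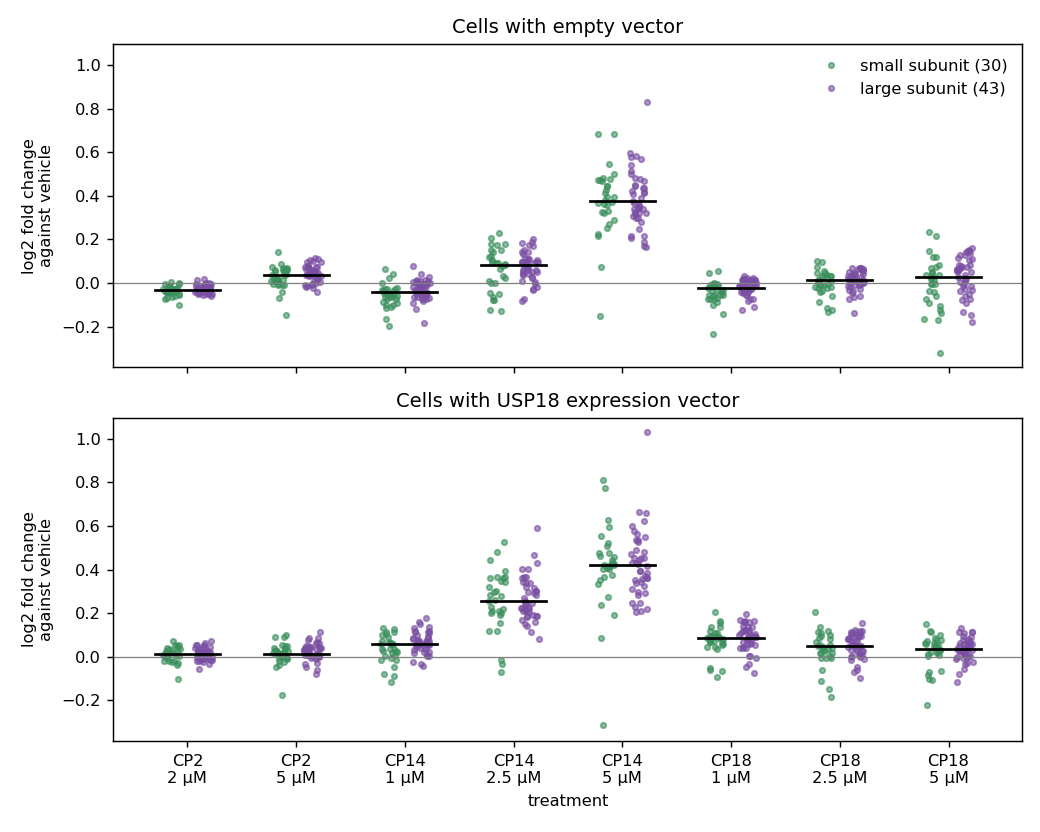
Log2 fold change of each member against vehicle (y axis) for each compound and dose (x axis), in insertless-vector cells above and USP18 cells below, with the median of the 73 as a line. The medians with 5 µM CP14 are 0.38 and 0.42, and with 2.5 µM CP14 they are 0.08 and 0.25, while those with CP2 and CP18 lie between -0.03 and 0.09.

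The rise was modest for most members and led by a few. RPL12, a protein at the base of the stalk that recruits elongation factors, was at 693, 695 and 690 CPM with vehicle and at 1206, 1273 and 1225 CPM with 5 µM CP14 in insertless-vector cells. In USP18 cells it was at 708, 698 and 711 CPM with vehicle and at 1502, 1407 and 1434 CPM with CP14. All treated libraries lay far above the vehicle libraries, and the log2 fold changes were 0.83 ± 0.033 (SE, adjusted p = 3.1e-15) and 1.03 ± 0.033 (adjusted p = 6.0e-17). RPL12 in USP18 cells was the only member past a log2 fold change of 1 in any comparison.

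RPS12, a small-subunit protein found near the beak of the head, was at 478, 475 and 488 CPM with vehicle and at 733, 828 and 763 CPM with 5 µM CP14 in insertless-vector cells (0.68 ± 0.039, adjusted p = 1.5e-12). In USP18 cells it was at 453, 477 and 457 CPM and at 807, 810 and 825 CPM (0.81 ± 0.039, adjusted p = 6.0e-14). Its level with vehicle was alike in the populations, and the groups did not overlap in either. RPS18, another protein of the small-subunit head, rose from 758 ± 6.81 to 1221 ± 39.0 CPM (SD, n = 3) and from 786 ± 12.5 to 1352 ± 26.5 CPM, log2 fold changes of 0.68 and 0.78.

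RPL26, a large-subunit protein also known to bind the p53 mRNA, and RPL36 completed the 5 largest rises in both populations. RPL26 changed by 0.59 ± 0.029 in insertless-vector cells and 0.66 ± 0.029 in USP18 cells, and RPL36 by 0.58 ± 0.043 and 0.66 ± 0.043. At the other end of the members called higher, RPL22, an RNA-binding protein, had 0.16 and 0.20, RPL6 0.19 and 0.22, RPL34 0.21 and 0.23, and RPL15 0.22 and 0.21. RPL7A had 0.17 in insertless-vector cells and 0.25 in USP18 cells.

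RPS26, which lines the mRNA exit channel of the small subunit, went the other way. It was at 198, 200 and 215 CPM with vehicle and at 181, 189 and 183 CPM with 5 µM CP14 in insertless-vector cells, a fall by 0.15 ± 0.041 on the log2 scale (adjusted p = 0.0026). In USP18 cells it fell from 234, 246 and 239 CPM to 186, 189 and 205 CPM, by 0.31 ± 0.040 (adjusted p = 5.1e-07). The treated libraries were all below the vehicle libraries in each population. RPS15, a protein near the decoding centre, was at 297, 296 and 286 CPM with vehicle and at 297, 330 and 300 CPM with CP14 in insertless-vector cells. Its log2 fold changes were 0.07 ± 0.039 (adjusted p = 0.12) there and 0.08 ± 0.039 for the USP18 population (adjusted p = 0.061). Of the 10 windows shown above, those of RPS26 and RPS15 were the ones with no pyrimidine tract, but that follows from the windows picked. The 14 other members without a tract were all called higher, RPL9 (0.58 and 0.55) among them.

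**Figure D3:**
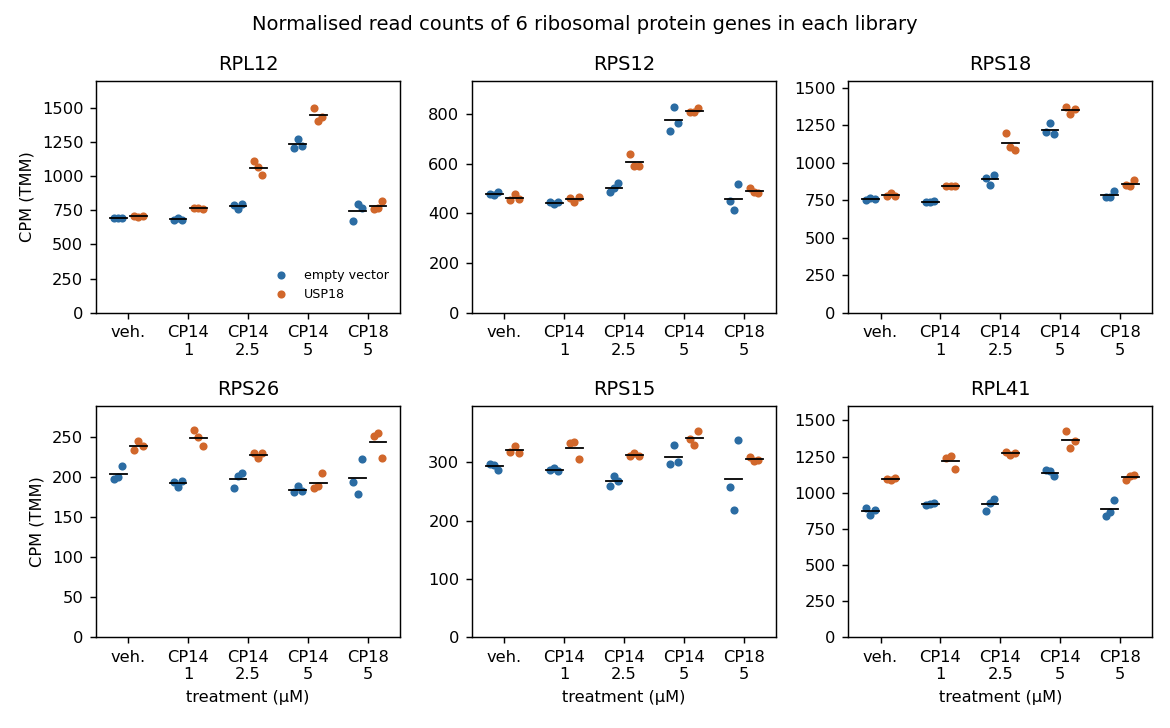
CPM (TMM-scaled, y axes from 0) of RPL12, RPS12, RPS18, RPS26, RPS15 and RPL41 in each library (points, with the group mean as a line) with vehicle, CP14 at 1, 2.5 and 5 µM and CP18 at 5 µM. RPL12 reaches 1206 to 1273 CPM in insertless-vector cells and 1407 to 1502 CPM in USP18 cells with 5 µM CP14, whereas RPS26 lies between 181 and 205 CPM there.

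Over all members in the promoter table, the range of changes with and without a tract overlapped widely. This split rests on the listed starts. In RPL17 and RPL4, counted as without a tract, a run of pyrimidines lies in the window but not at the start. The split therefore does not tell which members have a TOP mRNA. Members with a tract at an annotated start had a median log2 fold change of 0.38 in insertless-vector cells (0.16 to 0.83) and 0.43 in USP18 cells (0.20 to 1.03), and the 16 without had medians of 0.35 (-0.15 to 0.58) and 0.38 (-0.31 to 0.55). Across the 73 members, the log2 fold change had a correlation with log2 transcript length of -0.16 in insertless-vector cells and -0.20 in USP18 cells, and with the log2 level under vehicle of 0.27 and 0.14. These are descriptions over genes that share the same libraries.

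All 13 members listed for a second role or a special form rose with 5 µM CP14, as did nearly all of the set. Of all tested genes, 31.0% were higher in insertless-vector cells and 34.4% in USP18 cells. RPL22 (0.16 and 0.20, above) rose least of the 13. RPL5 and RPL11, the partners of 5S rRNA, rose by 0.43 ± 0.030 and 0.34 ± 0.030 in insertless-vector cells and by 0.46 ± 0.030 and 0.45 ± 0.030 in USP18 cells. RPS6, the substrate of S6 kinase, rose by 0.54 and 0.60, RPS27A, which is made as a fusion with ubiquitin, by 0.50 and 0.51, and RPL10, a late addition to the large subunit, by 0.57 and 0.62. RPS3, which also has a role in DNA repair, rose by 0.33 and 0.45, RPL13A, a component of the interferon-activated GAIT complex, by 0.28 and 0.37, and the X-linked RPS4X by 0.41 and 0.33. RPS14 and RPS19, whose loss is linked to inherited or acquired anaemias, rose by 0.45 and 0.42 and by 0.48 and 0.46. RPL41, the smallest ribosomal protein, rose by 0.38 and 0.31, and RPS27 by 0.47 and 0.63.

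**Figure D4:**
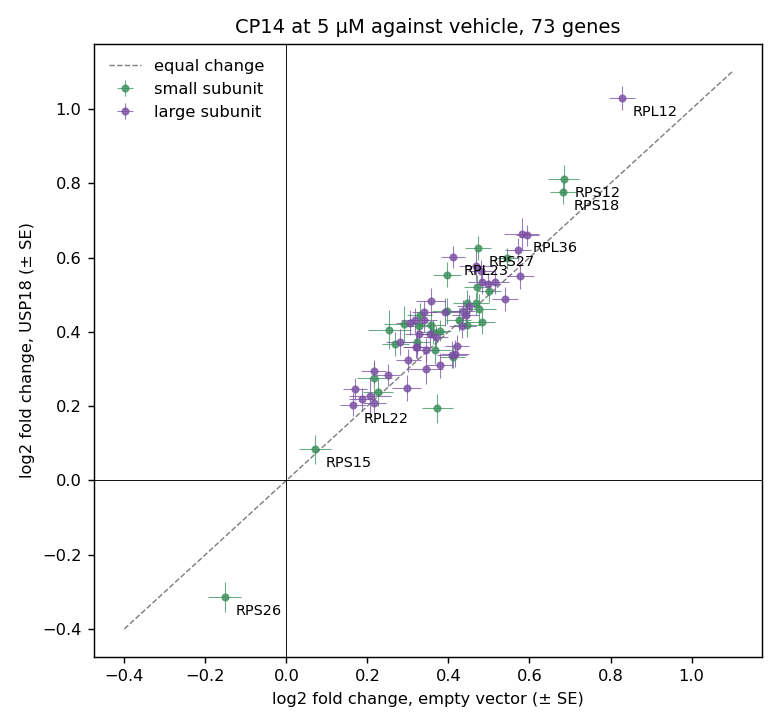
Log2 fold change with 5 µM CP14 against vehicle in insertless-vector cells (x axis) and in USP18 cells (y axis) for the 73 members, with SE bars and a dashed line of equal change. Most points lie close to the line, RPL12 (0.83 and 1.03) at the top and RPS26 (-0.15 and -0.31) at the bottom.

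Whether the response to 5 µM CP14 differed between cell populations was tested by the interaction. Of 73 members, 4 had a higher change in USP18 cells and 2 a lower one, beside 13.3% and 14.4% of all tested genes. Those with a higher change included RPL12 (0.20 ± 0.046, adjusted p = 0.0023), RPL23 (0.19 ± 0.042, adjusted p = 0.0019) and RPS27 (0.15 ± 0.045, adjusted p = 0.014). RPS26 was among those with a lower change (-0.16 ± 0.057, adjusted p = 0.038). The call for RPS26 was lost in 9 of the 12 fits that left out a library. Without replicate 2 of CP14 in insertless-vector cells, 17 members had a higher change in USP18 cells, and without replicate 2 of CP14 in USP18 cells 8 did.

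At 2.5 µM CP14 the populations differed for most members. In USP18 cells 70 of 73 rose (16.3% of tested genes were higher and 16.4% lower), with a median of 0.25 (1.19-fold), and RPS16, RPS15 and RPS26 did not pass. In insertless-vector cells 34 rose and 2 fell (7.06% and 8.07% of tested genes), with a median of 0.08. The 2 that fell were RPS16 (-0.12 ± 0.027) and RPS15 (-0.13 ± 0.030). The interaction was positive and called for 56 members, as compared with 4.08% of tested genes higher and 3.92% lower, with a median of 0.20. It was highest for RPL12 (0.42 ± 0.045, adjusted p = 6.5e-05), which was at 790, 762 and 795 CPM in insertless-vector cells and at 1113, 1065 and 1011 CPM in USP18 cells. RPS12 had 0.33, RPL10 0.31, and RPS18 and RPL28 0.30 each. The count of 34 in insertless-vector cells was 18 without replicate 3 of 2.5 µM CP14 and 21 without replicate 1 of vehicle.

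At 1 µM CP14 the changes were small, and the medians of the populations were of opposite sign. In insertless-vector cells 7 members were lower (0.456% of tested genes were lower and 0.405% higher), with a median of -0.04. DESeq2 called 13 members lower there. RPS29 (-0.20 ± 0.032), RPL36 (-0.18 ± 0.031) and RPS21 (-0.16 ± 0.032) fell most. In USP18 cells 28 were higher and 1 lower (7.4% and 7.94% of tested genes), with a median of 0.06. The interaction was called for 27 members, all positive, beside 2.6% of tested genes higher and 3.18% lower. This count was 5 in a fit of all 54 libraries and 8 with an offset for transcript length. Over the 3 doses of CP14, the group means rose from 1 to 2.5 to 5 µM in 64 members in insertless-vector cells and 68 in USP18 cells, an order found in 26.2% and 30.8% of all genes.

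With CP18 and CP2 the members' medians against vehicle lay between -0.03 and 0.09. With 5 µM CP18, 7 members were called in insertless-vector cells, all higher (8.4% of tested genes in either direction), and 2 in USP18 cells (10.7%), with medians of 0.03 and 0.04. The former count was 0 without replicate 1 of vehicle and 19 without replicate 1 of CP18, and 20 members were lower without replicate 3 of CP18. With 2.5 µM CP18, 2 members were higher and 5 lower in insertless-vector cells (5.96%), and in USP18 cells 25 were higher and 3 lower (7.19% and 7.0%). With 1 µM CP18, 1 member was called in insertless-vector cells (0.368%), RPS29, which fell by 0.23 ± 0.045, and in USP18 cells 39 were higher and 1 lower (7.74% and 8.0%), with a median of 0.09. The interaction at 1 µM was called for 25 members, all positive (2.78% of tested genes higher and 4.41% lower). It was called for 1 member without replicate 1 of vehicle in USP18 cells and for 2 with an offset for transcript length.

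With 5 µM CP2, 1 member was called in each population, RPS24 in insertless-vector cells (0.14 ± 0.034, adjusted p = 0.011) and RPS16 in USP18 cells (-0.18 ± 0.040, adjusted p = 0.0051), beside 12.1% and 19.0% of tested genes in either direction. Those calls are edgeR's, and at 5 µM DESeq2 called 2 members higher in insertless-vector cells and 2 higher and 1 lower in USP18 cells. With 2 µM CP2, edgeR called 0 of 73 members in either population (1.84% and 1.13% of tested genes). At an unadjusted p under 0.05 there were 6 in insertless-vector cells and 8 in USP18 cells, and DESeq2 called 1 in each. The interactions of CP2 at 2 and 5 µM (0.0569% and 0.92% of tested genes) and of CP18 at 2.5 and 5 µM (0.197% and 0.268%) were called by edgeR for 0 members, with 14, 0, 11 and 0 at an unadjusted p under 0.05 and 0, 0, 1 and 0 by DESeq2.

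The members at the ends of the range with 5 µM CP18 were picked out after their values were seen, and their difference from the other members was not tested. RPS29 had -0.32 (adjusted p = 0.053) with 5 µM CP18 in insertless-vector cells, the lowest value there, from libraries at 147, 115 and 187 CPM that overlapped those with vehicle, and -0.10 (adjusted p = 0.57) for the USP18 population. RPL28 had -0.18 (adjusted p = 0.11) in the former. RPS16 had -0.17 (adjusted p = 0.099) and -0.22 (adjusted p = 0.025) with 5 µM CP18 in insertless-vector and USP18 cells, while the members' medians there were positive. RPS24 had 0.24 with 5 µM CP18 in insertless-vector cells, the largest value there, and 0.11, not called, in USP18 cells.

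CP14 and CP18 were compared directly at 5 µM. Of 73 members, 69 were higher with CP14 in insertless-vector cells (29.5% of tested genes higher and 29.1% lower), with a median difference of 0.37 on the log2 scale. In USP18 cells 71 were higher and 1, RPS26, lower (33.8% and 31.9%), with a median of 0.40. The largest differences were those of RPS12 (0.76 ± 0.056) and RPL12 (0.73 ± 0.048) in insertless-vector cells, and of RPL12 (0.90 ± 0.048) and RPS12 (0.74 ± 0.056) in USP18 cells. In insertless-vector cells 4 members did not pass. These were RPL22, with a difference of 0.03 (95% interval from the SE -0.05 to 0.12), RPL6 with 0.05 (-0.03 to 0.13), RPS26 with -0.10 (-0.22 to 0.02) and RPS15 with 0.19 (0.02 to 0.35, adjusted p = 0.062).

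Without any compound, USP18 cells differed from insertless-vector cells in many members, by small amounts. Of 73 members 39 were higher and 5 lower, where 29.0% and 28.7% of tested genes were higher and lower, and the median was 0.06 (1.05-fold). Large-subunit genes, which are 43 of the 73 members, made up 29 of the higher members. RPL41 was at 895, 844 and 880 CPM in insertless-vector cells and at 1094, 1091 and 1104 CPM in USP18 cells, a difference of 0.33 ± 0.025 (adjusted p = 3.9e-09). RPL6 (0.29), RPL7A (0.27), RPL35 (0.25) and RPS26 (0.23) followed.

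The lower members were led by RPS2, at 2329, 2393 and 2289 CPM in insertless-vector cells and at 1767, 1784 and 1749 CPM in USP18 cells, a difference of -0.40 ± 0.026 (adjusted p = 3.1e-10). RPL13 (-0.35), RPS15A (-0.27), RPL28 (-0.12) and RPS27 (-0.09) were the others. For these 10 members the groups did not overlap, but they were picked for the size of their change, so this is no further result. The share of all genes with such a pattern is not given here. Reads of RPS2 are shared with pseudogenes, which held 5.09% of the counts of RPS2 and its pseudogenes in insertless-vector cells and 6.72% in USP18 cells with vehicle. The count of 39 was 27 in a fit of all 54 libraries and 47 with an offset for transcript length.

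The counts of ribosomal protein genes depend on how reads were divided among copies. The table has 1048 rows named as pseudogenes of members, 437 of them with a count, and over all libraries they held over 5% of the counts of a member and its pseudogenes for 6 members and under 1% for 60. RPL23A (43.1%) and RPL9 (34.9%) stood highest, followed by RPL22 (10.3%), and the values of these members are uncertain. For RPL12, RPS12, RPS18 and RPS26 this share was 0.75%, 0.014%, 0.11% and 0.15%. Summed over members, pseudogene rows held 1.86% ± 0.012 (SD, n = 3) with vehicle and 1.78% ± 0.052 with 5 µM CP14 in insertless-vector cells.

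Other genes of the translation machinery were followed as lists, and their counts with 5 µM CP14 are to be read beside the 31.0% of all tested genes that were higher and 32.1% that were lower in insertless-vector cells, and the 34.4% and 34.3% in the USP18 population. The 6 ribosomal protein genes outside the naming rule all rose with 5 µM CP14, with medians of 0.34 in insertless-vector cells and 0.38 in USP18 cells, among them RPLP0 of the stalk (0.46 and 0.33). Of 18 translation factors and other genes known for TOP mRNAs, 15 rose and 2 fell in insertless-vector cells and 11 rose and 3 fell in USP18 cells, with medians of 0.23 in each. EEF1A1, the elongation factor, rose by 0.42 and 0.41 and EEF1B2 by 0.62 and 0.58, while HNRNPA1, a splicing regulator, fell by 0.65 and 0.69 and EIF4B by 0.39 and 0.52.

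Host genes of small nucleolar RNAs had higher medians than the members, a difference that was not tested. Several such hosts are known for TOP transcripts. Of the pair named here, ZFAS1 had a tract at its listed RefSeq start and GAS5 had none there. As for RPS26, the absence is a statement about the listed start and does not show that GAS5 lacks a TOP transcript. All 12 on the list rose in both populations, where 31.0% and 34.4% of all tested genes were higher, with medians of 0.95 and 1.03. ZFAS1 was at 101, 104 and 101 CPM with vehicle and at 510, 573 and 541 CPM with 5 µM CP14 in insertless-vector cells, and at 91.9, 99.8 and 102 CPM and at 469, 464 and 471 CPM in USP18 cells, a rise by 2.41 ± 0.044 and 2.25 ± 0.044. GAS5, a growth arrest transcript, rose by 2.26 ± 0.040 and 2.10 ± 0.039. At 2.5 µM CP14, 5 of 12 rose in insertless-vector cells and 8 of 12 in USP18 cells, beside 7.06% and 16.3% of all tested genes.

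**Figure D5:**
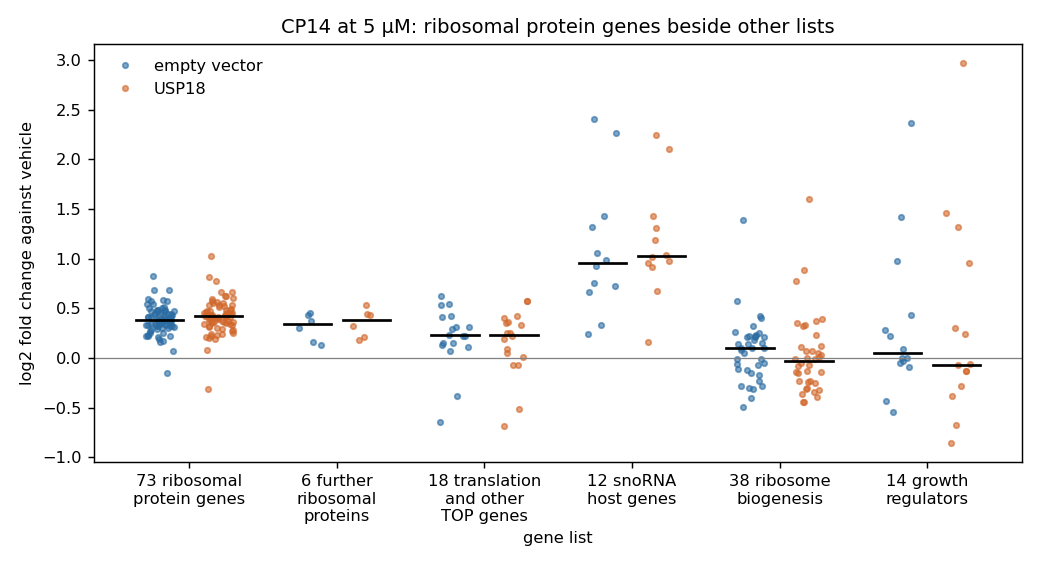
Log2 fold change with 5 µM CP14 against vehicle (y axis) for the 73 members and 5 further lists (x axis), each point a gene and each line a median, in insertless-vector and USP18 cells. snoRNA host genes have medians of 0.95 and 1.03, the members 0.38 and 0.42, and ribosome biogenesis genes 0.10 and -0.03.

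Ribosome biogenesis factors and mitochondrial ribosomal proteins had lower medians than the members, a difference that was not tested. Of 38 biogenesis genes 16 rose and 10 fell in insertless-vector cells, where 31.0% of all tested genes were higher and 32.1% lower, and 9 rose and 14 fell in USP18 cells, where 34.4% were higher and 34.3% lower. Among them were DDX10, a nucleolar helicase (1.39 and 1.60), and UBTF, the RNA polymerase I factor (-0.49 and -0.45). Of 78 mitochondrial ribosomal protein genes 14 rose and 29 fell, and 18 rose and 44 fell, with medians of -0.07 and -0.18. Among the paralogues of members, RPL22L1 rose by 0.69 ± 0.046 and 1.00 ± 0.045, whereas RPL22 itself rose by 0.16 and 0.20.

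Of 14 growth regulators, 7 rose and 3 fell in insertless-vector cells and 6 rose and 5 fell in USP18 cells with 5 µM CP14, and the shares of all tested genes were those given for the biogenesis genes. In USP18 cells the counts lie near those shares. SESN2 and DDIT4, inhibitors of mTOR, rose by 2.37 and 0.97 in insertless-vector cells and by 2.97 and 1.46 in USP18 cells, and EIF4EBP1 by 1.41 and 0.96. MYC rose by 0.22 ± 0.050 and 1.31 ± 0.050, and LARP1 changed by 0.09 and -0.06, the latter not called. Of the 4 genes listed around p53, 3 rose and 1 fell in insertless-vector cells and 3 rose in USP18 cells, where the other was not called. The largest rises were those of CDKN1A and MDM2. CDKN1A rose by 1.31 and 2.07 and MDM2 by 0.70 and 0.78.

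Signs of the libraries that moved with the same comparisons are given as measured, beside the 32.1% and 34.3% of all tested genes that were lower with 5 µM CP14 in insertless-vector and USP18 cells. RNAs without a poly(A) tail (5 genes in 6 rows) summed to 66.9 to 499 CPM with vehicle and 49.0 to 90.5 CPM with 5 µM CP14 in insertless-vector cells, and to 44.4 to 106 CPM and 49.5 to 63.5 CPM in USP18 cells, so that treated and vehicle libraries overlapped in each. All 6 rows were called lower in insertless-vector cells, with a median of -2.22 on the log2 scale, whereas in USP18 cells the median was -0.18. Of the 5 epithelial markers 4 fell in each population, and their sum was 11346 to 11584 CPM with vehicle and 4368 to 4585 CPM with CP14 in insertless-vector cells, and 7181 to 7391 CPM and 2995 to 3213 CPM in USP18 cells. Fibroblast markers summed to 11.6 to 14.4 CPM and 6.18 to 6.75 CPM in insertless-vector cells and to 7.86 to 8.18 CPM and 4.10 to 4.45 CPM in USP18 cells. Of the leukocyte markers, CD3E was at 0 and PTPRC at most near 0, and CD68, which other cells also express, rose in both populations. Endothelial markers summed to at most 0.498 CPM. Of 15 mitochondrially encoded genes, 11 fell in each population, and 4 and 3 rose. The part of these RNAs in the results was not tested.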

How the data were processed

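RNA of A549 cells was sequenced in 54 libraries. The authors trimmed reads with Cutadapt 1.18, aligned them with STAR 2.7.0f to hg38 and estimated counts with RSEM (1.3.1 in the submitters' processing notes, another version in the methods). The labels describe poly(A) capture and the methods removal of ribosomal RNA. The deposited table gives gene-level expected counts, which the authors did not scale between libraries. RSEM divides reads that fit several copies, and 20.5% to 35.6% of member values per library were whole numbers.

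Counts were rounded and tested with edgeR 4.0.16 under R 4.3.3 (scaling by TMM, then the quasi-likelihood test with p-values adjusted by Benjamini-Hochberg), on genes kept by filterByExpr at its limits of 10 counts per library and 15 in total. Each compound and dose was fitted with vehicle in both populations (12 libraries), vehicle alone on 6, and CP14 against CP18 on the 18 libraries of both with vehicle, since these groups make 18 and not 12. CPM per library was scaled over all 54. The procedure was tested on simulated data. Between replicates, chi-square divided by the number of genes was 1.80 to 11.1, above counting noise. Replicate numbers did not pair the libraries: in 0 of 45 pairs of groups did all 3 correlations of deviations pass 0.1.

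Named members follow a rule: the 5 highest and 5 lowest changes among called members in each main comparison (USP18 against insertless vector, 5 µM CP14 in each population, its interaction), the 3 highest and 3 lowest levels per length, 13 members with a second role or form, every member that missed the filter (0), and any called member past a log2 fold change of 1. Others are named where a count of calls was small, where a copy or another compound stood apart, or in the pseudogene check, after their values were seen. Members, rule and lists were chosen with earlier results of these data known. Promoter sequences are RefSeq's on GRCh38.p14, and lengths are from GENCODE v44. Alternatives were RLE scaling, TMM without members, 2 other filters, DESeq2 1.42.0, a fit of all 54 libraries, a replicate block, an offset for transcript length and leaving out each library. Values of some single genes are not reported here.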

Additional observations from a re-analysis of the deposited data

Results flagged for a closer look

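The change with treatment differed between insertless-vector and USP18 cells by the test of the interaction for 27 members at 1 µM CP14, 56 at 2.5 µM CP14, 6 at 5 µM CP14 and 25 at 1 µM CP18. Over all tested genes the interaction was called higher and lower for 2.6% and 3.18%, 4.08% and 3.92%, 13.3% and 14.4%, and 2.78% and 4.41% in the same order. At 5 µM CP14, 4 of the 6 had a higher change in USP18 cells, a count that was 10 with DESeq2 and 17 without replicate 2 of CP14 in insertless-vector cells. The 27 became 5 in the fit of all 54 libraries, and the 25 became 1 without replicate 1 of vehicle in USP18 cells. At 2.5 µM CP14 the interaction on the log2 scale was largest for RPL12 (0.42), RPS12 (0.33), RPL10 (0.31), RPS18 (0.30) and RPL28 (0.30). At 5 µM CP14 it was 0.20 for RPL12, 0.19 for RPL23, 0.15 for RPS27 and -0.16 for RPS26. Groups of 3 libraries are too small for the outlier test used for larger groups. Replicate 3 of 5 µM CP18 in insertless-vector cells differed from the other replicates by a chi-square per gene of 8.82 and 11.1, as compared with 4.66 between those.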

How the results depend on the processing

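With 5 µM CP14 the count of members that rose was 71 or 72 in each population under every setting run, leaving out a library included, with medians of 0.36 to 0.39 in insertless-vector cells and 0.41 to 0.45 in USP18 cells (0.42 to 0.45 when a library was left out). The interaction at that dose called 9 members higher with at least 10 counts in every library, 10 with DESeq2 and 10 with the length offset, and 3 to 17 when a library was left out. At 2.5 µM CP14 the median in insertless-vector cells was 0.064 to 0.093 and the count 18 to 29 when a library was left out, and the median interaction was 0.17 with the length offset. The vehicle comparison had a median of 0.088 with the length offset. CP14 against CP18 in USP18 cells had a median of 0.37 without a filter beyond a count above 0. The median for 2 µM CP2 in USP18 cells changed sign without replicate 1 of vehicle (-3.03e-05) and was at most 0.020 when another library was left out. The cause of these shifts was not tested. With the replicate block, 71 members rose in each population at 5 µM CP14, 70 in USP18 cells at 2.5 µM and 38 in the vehicle comparison. Each member had over 2000 counts in every library, and each group had 3 replicates. The effect of depth or of the number of replicates on the calls was not tested.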
